A study of Mus musculus with 10 samples.

Results

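The 10 genes described here, Gh, Prl, Tshb, Fshb, Lhb, Cga, Pou1f1, Nr5a1, Ghrhr and Gnrhr, encode hormones of the anterior lobe (AL) of the mouse pituitary and the factors and receptors that govern them. They were measured in bulk RNA of the dissected intermediate lobe (IL), the neighbouring tissue that consists mainly of melanotrophs. The genes were found by their symbols among the 29527 rows of the deposited table, and each of the 10 matched 1 row. All 10 passed the filter on low values, which was a mean of at least 10 on the linear scale over all libraries, and which 17268 genes passed. The row taken as Lhb carries the identifier ENSMUSG00000100916, whose symbol came only from the study's own lists of changed genes. These lists cover the samples used here and other samples of the study. The difference of Lhb between genotypes may therefore not be independent of that choice.

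The table covers 10 mice, 4 of them wild type (WT), 3 of genotype p27-/- and 3 of genotype p27-/-;Sox2+/-, aged 2 to 3 months per the labels, with 1 library per mouse. p27-/- mice are homozygous for a germline null allele of Cdkn1b, which encodes the cell cycle inhibitor P27. p27-/-;Sox2+/- mice carry the same null alleles and have in addition lost 1 copy of Sox2, a transcription factor of pituitary stem cells and melanotrophs. The mice were on a mixed background. The study's methods describe, for cell dissociation, that the IL was cut from the AL along the cleft between the lobes, and how much of the AL stayed on these samples is not stated. The comparisons ask how the AL genes carried in the IL samples differed when P27 was absent, and when 1 copy of Sox2 was lost as well.

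The AL holds several endocrine cell types. Somatotrophs make growth hormone, lactotrophs prolactin and thyrotrophs thyrotropin, and all of these depend on the POU homeodomain factor POU1F1. Gonadotrophs make follicle-stimulating hormone and luteinizing hormone under the nuclear receptor NR5A1 and the receptor for gonadotropin-releasing hormone. The glycoprotein hormones share 1 alpha subunit, encoded by Cga, and each has its own beta subunit. Melanotrophs make none of these hormones and instead process POMC into melanocyte-stimulating hormone.

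Values are log2 normalized counts as deposited. The table does not state the depth of a library, and precision rests on the small number of mice. limma, the method of the tests between genotypes, draws the spread of each gene toward that of other genes. SEs and intervals of highly variable genes, such as Fshb, Lhb and Prl, are therefore narrower than their own spread would give. Cdkn1b was lower than in WT in both mutants, with log2 differences of -0.43 for p27-/- (adjusted p = 0.047) and -0.72 for p27-/-;Sox2+/- (adjusted p = 0.00854). Every p27-/-;Sox2+/- library had less Sox2 than every other library, although that difference from WT did not pass the threshold (adjusted p = 0.0811). The melanotroph genes were high in all libraries, with log2 values of 18.003 to 19.005 for Pomc, 13.46 to 14.39 for Pcsk2, the convertase that processes POMC, and 11.45 to 11.97 for Pax7, the factor that specifies melanotrophs. WT replicate 2 stood apart, with the highest value of 7 of the 10 AL genes. p27-/- replicate 1 had the next highest values of Prl and Pou1f1. The differences of the 10 genes between genotypes were also computed without these 2 libraries. Xist, the RNA of the inactive X chromosome, separated 6 libraries at 14.32 to 15.01 from 4 at 8.78 to 9.29, and the Y-linked gene Ddx3y was at 8.69 to 8.81 in the same 4 and at 4.55 to 5.10 in the 6. The labels give no sex for a library, but the study lists both females and males in every genotype of this experiment.

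Per length, Prl, Gh and Cga were the most abundant of the 10 transcripts in WT IL. Divided by the length of the longest protein-coding transcript, the log2 value per kilobase in WT was 13.81 ± 2.69 (SD, n = 4) for Prl, 13.23 ± 0.97 (SD, n = 4) for Gh and 12.91 ± 0.75 (SD, n = 4) for Cga, and the ranges of these 3 genes overlapped. Pomc, on the same scale, was at 18.45 ± 0.43 (SD, n = 4). Next came Lhb at 8.40 ± 0.36 (SD, n = 4), Fshb at 8.23 ± 1.19 (SD, n = 4) and Gnrhr at 7.56 ± 0.82 (SD, n = 4), which also overlapped with each other. Tshb followed at 6.15 ± 0.21 (SD, n = 4), below every WT library of Lhb, Fshb and Gnrhr, but within the range of Pou1f1 at 5.55 ± 1.40 (SD, n = 4). Nr5a1 at 3.59 ± 0.46 (SD, n = 4) and Ghrhr at 3.33 ± 0.36 (SD, n = 4) were the lowest and overlapped.

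**Figure D1:**
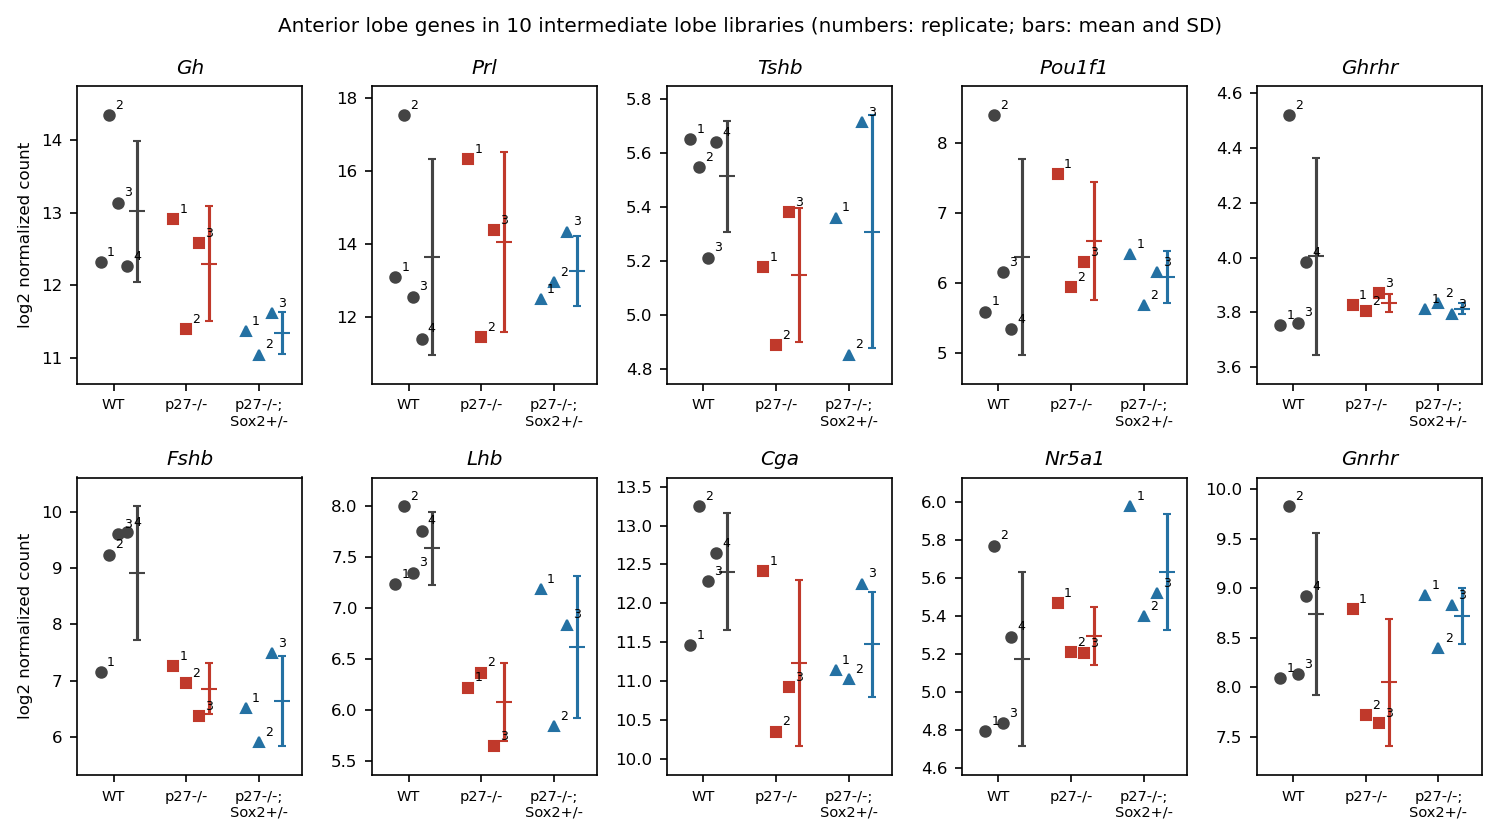
Log2 normalized count (y axis) of the 10 AL genes in each library by genotype (x axis), with the replicate number beside each point and the mean and SD of each genotype as a bar. WT replicate 2 is the highest library for 7 genes, Lhb is lower in each mutant library than in each WT library, and Fshb is low in all mutant libraries and in WT replicate 1.

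The beta subunits of the gonadotropins carried all calls between genotypes. Fshb (ENSMUSG00000027120), the beta subunit of follicle-stimulating hormone, and Lhb, the beta subunit of luteinizing hormone, were both lower in p27-/- than in WT IL, by 4.12-fold and 2.85-fold. Only Fshb also passed the threshold in p27-/-;Sox2+/- IL, where it was 4.81-fold lower than in WT. These were the only calls among the 10 genes in the 3 comparisons. In p27-/- against WT this was 2 of 10 genes, both lower, where 7.78% of all tested genes were called, 4.62% as lower. 1 of these 2 was Lhb, whose row was named only from the study's lists of changed genes. The count is therefore not independent of those lists. In p27-/-;Sox2+/- against WT it was 1 of 10, where 2.71% of all tested genes were called, 1.88% as lower. None of the 10 differed between p27-/-;Sox2+/- and p27-/- in limma's test, none of them with an unadjusted p under 0.05. Of all tested genes, 0.145% were called and 6.65% had an unadjusted p under 0.05.

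The promoter windows of the genes that encode the subunits of these gonadotropins are shown because Fshb and Lhb carry the calls and Cga their common subunit. Each runs from 250 bases before to 50 bases after the transcription start in RefSeq on GRCm38, written 5′ to 3′ on the strand of the gene. Capitals mark a match on either strand to AAGGTCA, a half-site that NR5A1 can bind, or to TATNCAT, a motif that POU1F1 can bind.
Fshb (chr2:107059602-107059901, - strand): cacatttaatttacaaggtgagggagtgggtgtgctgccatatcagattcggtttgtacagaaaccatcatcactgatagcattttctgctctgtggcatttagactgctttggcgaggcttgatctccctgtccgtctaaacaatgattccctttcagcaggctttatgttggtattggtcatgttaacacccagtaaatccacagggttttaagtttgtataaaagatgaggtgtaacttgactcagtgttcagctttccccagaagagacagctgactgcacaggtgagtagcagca
Lhb (chr7:45420696-45420995, + strand): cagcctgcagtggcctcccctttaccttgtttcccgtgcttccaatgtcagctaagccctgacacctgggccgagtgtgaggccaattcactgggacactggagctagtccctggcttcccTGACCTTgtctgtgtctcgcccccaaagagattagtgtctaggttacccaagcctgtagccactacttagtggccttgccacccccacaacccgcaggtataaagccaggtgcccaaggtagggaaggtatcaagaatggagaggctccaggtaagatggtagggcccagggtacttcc
Cga (chr4:34893529-34893828, + strand): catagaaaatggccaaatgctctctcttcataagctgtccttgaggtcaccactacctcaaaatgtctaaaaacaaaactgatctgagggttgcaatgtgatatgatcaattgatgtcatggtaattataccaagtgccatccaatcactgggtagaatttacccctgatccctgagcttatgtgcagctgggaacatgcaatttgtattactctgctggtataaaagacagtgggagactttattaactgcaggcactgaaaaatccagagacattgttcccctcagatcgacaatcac
The Lhb window holds 1 AAGGTCA match on the minus strand, 129 bases before the start, whereas the Fshb and Cga windows hold a match to neither motif. AAGGTCA was found in 4.72% of all 32851 promoter windows of this length and TATNCAT in 8.84%. The windows of Tshb and Gnrhr also lacked both motifs.

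Fshb had log2 values of 7.15, 9.24, 9.61 and 9.64 in WT replicates 1 to 4. In p27-/- it was at 7.26, 6.96 and 6.37, and in p27-/-;Sox2+/- at 6.52, 5.91 and 7.50. WT replicates 2, 3 and 4 were thus high, while WT replicate 1 lay among the mutants, so that the groups overlapped. The log2 difference from WT was -2.04 (SE 0.50, adjusted p = 0.028) in p27-/- and -2.27 (SE 0.50, adjusted p = 0.0294) in p27-/-;Sox2+/-. The mutants differed from each other by -0.22 (95% interval -1.38 to 0.93), which leaves room for a difference of more than 2-fold in the downward direction. Leaving out a single library ended the call in p27-/- for any of WT replicates 3 and 4 and p27-/- replicates 1, 2 and 3 (adjusted p up to 0.123), and in p27-/-;Sox2+/- for WT replicates 3 and 4 and p27-/-;Sox2+/- replicates 1 and 2 (adjusted p up to 0.162). Without WT replicate 1 the log2 differences were -2.63 (adjusted p = 0.000696) and -2.85 (adjusted p = 0.00121), and without both WT replicate 2 and p27-/- replicate 1 they were -2.13 (adjusted p = 0.0793) and -2.16 (adjusted p = 0.0646).

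Lhb was at 7.24, 7.995, 7.34 and 7.76 in WT, at 6.22, 6.36 and 5.64 in p27-/- and at 7.18, 5.84 and 6.83 in p27-/-;Sox2+/- libraries on the log2 scale. Every mutant library was below every WT library, with the least gap between p27-/-;Sox2+/- replicate 1 and WT replicate 1. Of all tested genes, 10.3% had every p27-/- library below every WT library and 8.01% every p27-/-;Sox2+/- library. The log2 difference was -1.51 in p27-/- (SE 0.28, adjusted p = 0.00677). It stayed past the threshold with each library left out in turn and in every other setting tried (adjusted p from 0.00226 to 0.0458). In p27-/-;Sox2+/- the difference was -0.97 (SE 0.28), and its adjusted p of 0.0845 missed the threshold. The mutants differed by 0.54 (95% interval -0.095 to 1.182, adjusted p = 0.853).

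Cga, Gnrhr and Nr5a1, the other members with a part in gonadotrophs, did not pass the threshold. Cga, the alpha subunit that thyrotrophs also make, was at 11.46, 13.25, 12.28 and 12.64 in WT, at 12.42, 10.35 and 10.92 in p27-/- and at 11.14, 11.03 and 12.25 in p27-/-;Sox2+/- libraries. WT and mutant values overlapped, and the log2 differences of -1.18 (SE 0.46, adjusted p = 0.131) and -0.93 (SE 0.46, adjusted p = 0.306) did not pass. Without WT replicate 2 and p27-/- replicate 1 the difference in p27-/- was -1.49 and passed (adjusted p = 0.0402). Leaving out WT replicate 1 alone (adjusted p = 0.0454) or p27-/- replicate 1 alone (adjusted p = 0.0343) had the same effect on the call.

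Gnrhr, the receptor through which the hypothalamus drives gonadotropin release, was at 8.09, 9.83, 8.13 and 8.92 in WT, at 8.79, 7.72 and 7.64 in p27-/- and at 8.93, 8.40 and 8.83 in p27-/-;Sox2+/- libraries. The p27-/-;Sox2+/- values lay inside the WT range, with a log2 difference of -0.025 (95% interval -0.80 to 0.75), and 2 of the 3 p27-/- values lay below it (log2 difference -0.69, 95% interval -1.47 to 0.083, adjusted p = 0.26). Nr5a1, the nuclear receptor that marks gonadotrophs, was at 4.79, 5.77, 4.84 and 5.29 in WT, at 5.47, 5.21 and 5.20 in p27-/- and at 5.98, 5.40 and 5.52 in p27-/-;Sox2+/- libraries. Its log2 differences from WT had the opposite sign to those of Fshb and Lhb, 0.12 (SE 0.21, adjusted p = 0.774) and 0.46 (SE 0.21, adjusted p = 0.277), and did not pass. In this bulk tissue, fewer cells of a type and less RNA per cell cannot be told apart for any of these genes.

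**Figure D2:**
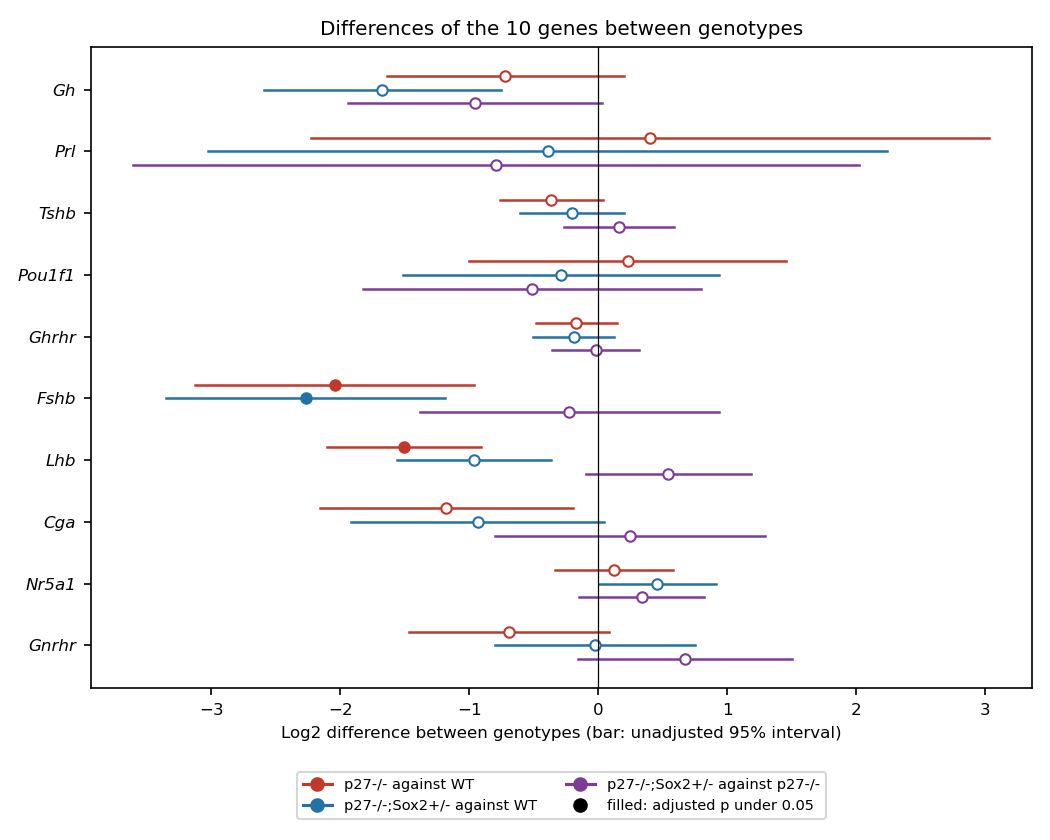
Log2 differences between genotypes (x axis) for the 10 AL genes (y axis), with unadjusted 95% intervals as bars and filled points for an adjusted p under 0.05. Fshb against WT in both mutants and Lhb against WT in p27-/- are the filled points, and the intervals of Prl are the widest.

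Ratios between the gonadotropin genes within a library did not pass the test in any comparison. The log2 ratio of Fshb to Cga was -4.31 to -2.67 in WT, -5.15 to -3.39 in p27-/- and -5.12 to -4.62 in p27-/-;Sox2+/- libraries. All p27-/-;Sox2+/- libraries were below all WT libraries (difference of means -1.33, two-sided exact permutation p = 0.0571, which is the smallest that 3 against 4 libraries allow, adjusted p = 0.343 over 12 tests). The log2 ratio of Lhb to Fshb averaged -1.33 ± 1.03 (SD, n = 4) among WT libraries. It averaged -0.79 ± 0.23 (SD, n = 3) among p27-/- libraries and -0.024 ± 0.66 (SD, n = 3) where Sox2 was also reduced to 1 copy, with exact permutation p-values of 0.171 to 0.4. The ratio of Fshb to Gnrhr, chosen after the values were seen and given without a test, was -0.94, -0.59, 1.48 and 0.72 in WT, -1.53 to -0.76 in p27-/- and -2.49 to -1.33 in p27-/-;Sox2+/-.

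Across the 10 libraries Fshb and Lhb varied together (Pearson's r = 0.80, permutation p = 0.00538, adjusted p = 0.016 over 6 relations, Spearman's rho = 0.79, permutation p = 0.0089, adjusted p = 0.0534). The relation was similar without WT replicates 3 and 4, which had the values of Fshb farthest from the median (r = 0.78), with r = 0.54 within genotypes. The permutations ran over all libraries without regard to genotype, so their p also takes in differences between genotypes. No p was computed within genotypes. Gnrhr and Cga also varied together (r = 0.77, permutation p = 0.00802, adjusted p = 0.016, rho = 0.70, permutation p = 0.031, adjusted p = 0.093), with r = 0.59 without WT replicate 2 and p27-/- replicate 3 and r = 0.81 within genotypes. The relation of Gnrhr and Fshb did not pass (r = 0.44, permutation p = 0.216, rho = 0.43, permutation p = 0.217), with r = 0.085 without the same 2 libraries and r = 0.47 within genotypes. That of Gnrhr and Pou1f1, which belong to different lineages, did not pass either (r = 0.61, permutation p = 0.0885, rho = 0.32, permutation p = 0.365), with r = -0.14 without WT replicate 2 and p27-/- replicate 1. Within genotypes, with these libraries kept, r was 0.82 for Gnrhr and Pou1f1, close to that of Gnrhr and Cga.

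**Figure D3:**
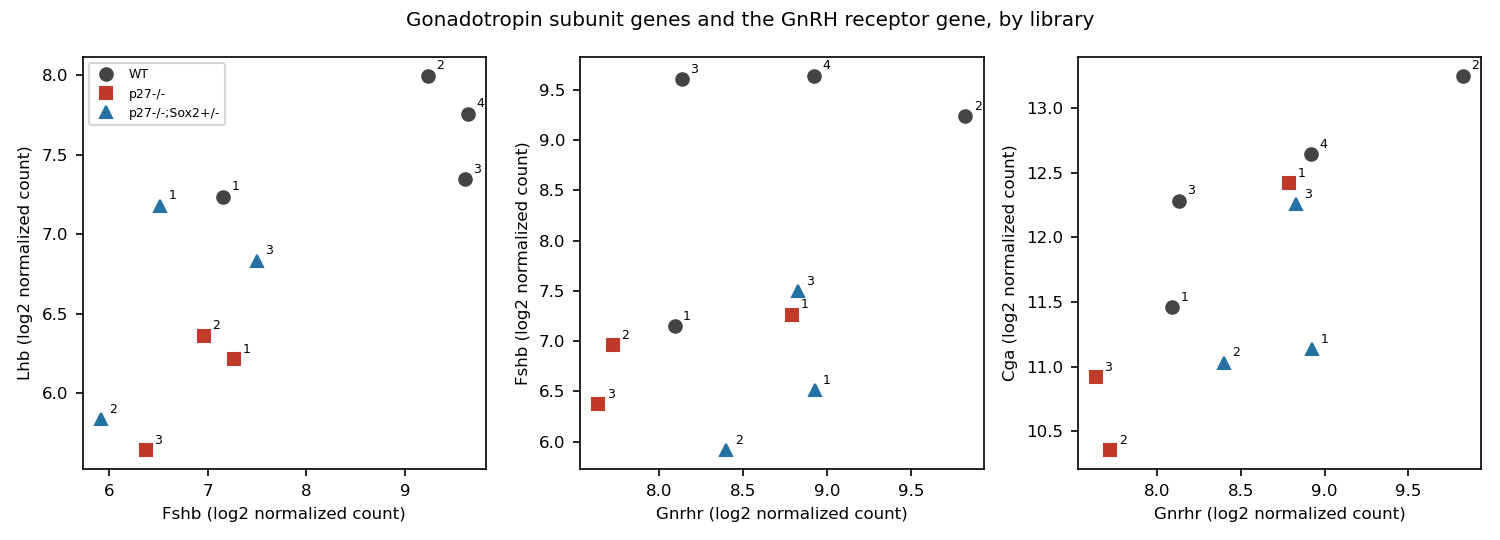
Lhb against Fshb, Fshb against Gnrhr and Cga against Gnrhr (log2 normalized counts on both axes), 1 point per library, with colour and shape for the genotype and the replicate number beside each point. The 3 WT libraries with Fshb above 9 stand apart from WT replicate 1 and all mutants, while Gnrhr of WT replicates 1, 3 and 4 lies within the 7.64 to 8.93 of the mutants.

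Other genes known from gonadotrophs were tested from a list of 12, of which 11 were in the table and 9 passed the filter. In p27-/-;Sox2+/- against WT and between the mutants none of these 9 passed with limma's test, with 4 and 1 at an unadjusted p under 0.05. Of all tested genes, 17.8% and 6.65% were at such a p in these comparisons. The median log2 difference of the list was -0.11 in p27-/- and -0.026 in p27-/-;Sox2+/-, where all tested genes had medians of 0.0087 and 0.0098. Transcription factors shared by all pituitary endocrine lineages, such as Pitx1 and Lhx3, gave no call among 7 tested in any comparison (none of 7 with an unadjusted p under 0.05 in p27-/-, 2 in p27-/-;Sox2+/- and 1 between the mutants). The shares of all tested genes at such a p were 24.1%, 17.8% and 6.65%.

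Some markers of other cells also differed between genotypes. The log2 of the summed level of 8 endothelial genes, which mark the vessels that the AL is rich in and the IL poor, was 8.79 to 9.20 in WT, 8.42 to 8.74 in p27-/- and 8.53 to 8.94 in p27-/-;Sox2+/- libraries, so that WT and p27-/- did not overlap on this scale. The mean centred log2 value of the same 8 genes did overlap, at -0.10 to 0.38 in WT and -0.29 to -0.04 in p27-/- libraries. All 8 were lower on average in p27-/- than in WT and 1 passed, Kdr, the receptor for vascular endothelial growth factor (log2 difference -0.83, adjusted p = 0.00966). Kdr also passed for p27-/-;Sox2+/- against WT (log2 difference -0.67, adjusted p = 0.0459). The log2 of the summed level of 6 genes of pituicytes, the glia of the posterior lobe, was 9.85 to 12.30 in WT, 10.57 to 10.78 in p27-/- and 10.10 to 12.09 in p27-/-;Sox2+/- libraries, with the defining factor Rax between 3.12 and 3.69. Of these, Cxcl14 was higher in p27-/- (log2 difference 0.67, adjusted p = 0.00715) and 5 of 6 had a negative difference. Among 5 melanotroph genes Pcsk2 was higher in p27-/- (0.53, adjusted p = 0.0352), and among 6 corticotroph genes Crhr1, the receptor for corticotropin-releasing hormone, was lower (-0.80, adjusted p = 0.00146) and was higher in p27-/-;Sox2+/- than in p27-/- (0.67, adjusted p = 0.0491). None of 3 red cell genes passed with limma's test in any comparison (1 with an unadjusted p under 0.05, in p27-/-;Sox2+/- against WT, where 17.8% of all tested genes had one). Of all tested genes, 7.78% were called in p27-/- against WT and 48.4% had a negative difference there. In p27-/-;Sox2+/- against WT 2.71% were called, and 0.145% between the mutants. A single call against WT in lists this short cannot be set apart from these shares. Crhr1 between the mutants was 1 call among 6 genes, a larger share than 0.145%, with an adjusted p close to the threshold. No gene was called between the mutants with p27-/- replicate 2 or p27-/- replicate 3 left out. The part of these other cells in the values of Fshb and Lhb was not tested.

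**Figure D4:**
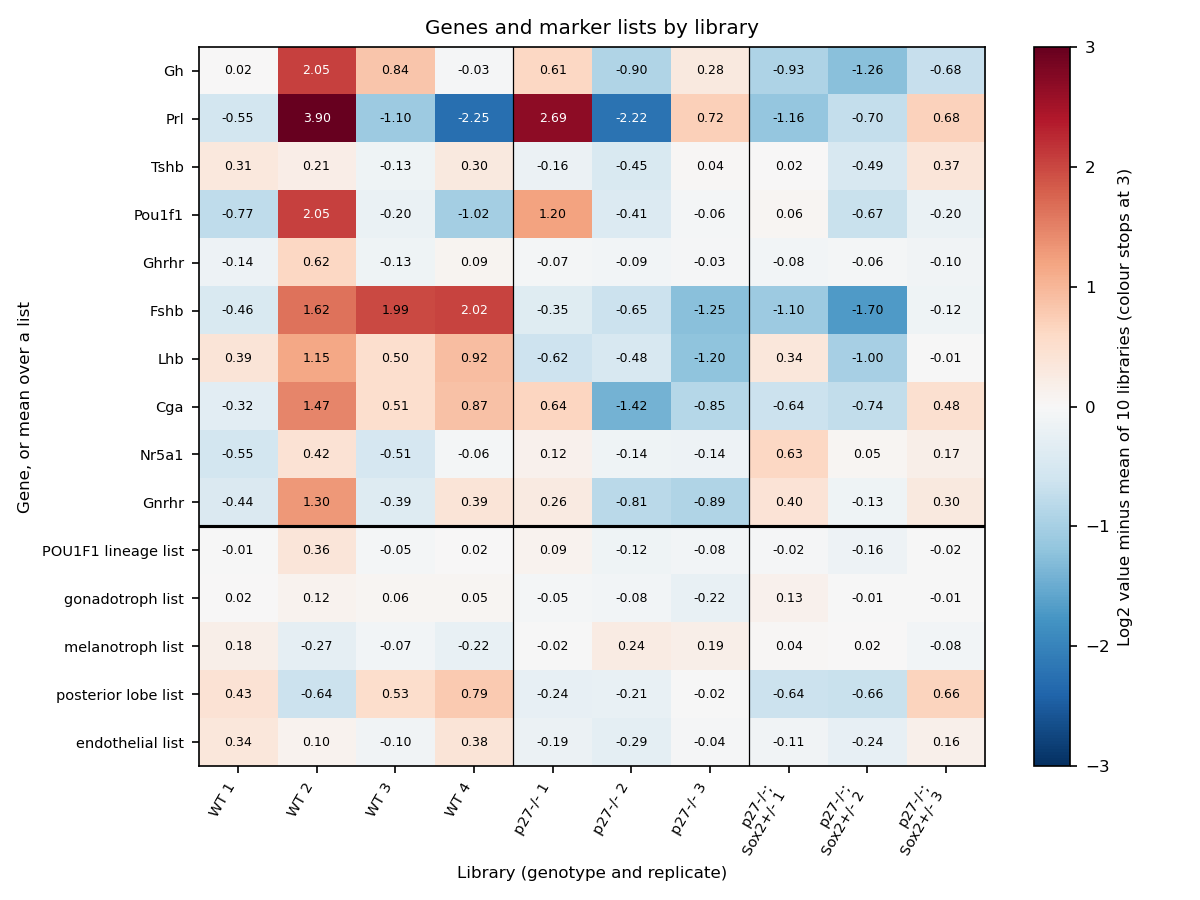
Log2 value minus the mean over the 10 libraries (colour and printed number) for the 10 AL genes and for the mean of 5 marker lists (rows, y axis) in each library (columns, x axis). Prl in WT replicate 2 and p27-/- replicate 1 has the highest values, and the means of the marker lists vary over a narrower range than Prl, Gh or Fshb. Averaging over genes narrows a range, so the width of these means cannot be set against that of single genes.

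Prl (ENSMUSG00000021342), the hormone of lactotrophs, was the most variable of the 10 genes and differed by far more within genotypes than between them. Its log2 values were 13.09, 17.54, 12.55 and 11.40 in WT, 16.34, 11.43 and 14.37 in p27-/- and 12.48, 12.94 and 14.33 in p27-/-;Sox2+/- libraries. WT replicate 2 was thus 70.9-fold above WT replicate 4, and the p27-/- libraries spanned 30.0-fold. Only 7 of the 17268 tested genes had a larger residual SD within genotypes than Prl, at 2.26 against a median of 0.15 over all tested genes. The log2 differences from WT, 0.40 (95% interval -2.23 to 3.03) and -0.39 (95% interval -3.02 to 2.24), do not tell a several-fold rise from a several-fold fall. Without WT replicate 2 and p27-/- replicate 1 they were 0.55 (adjusted p = 0.722) and 0.91 (adjusted p = 0.486), so that the sign in p27-/-;Sox2+/- turned.

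The Prl promoter window is shown because it is the 1 hormone gene window of those found that holds POU1F1 motifs. It is given in the same way as those above.
Prl (chr13:27057320-27057619, + strand): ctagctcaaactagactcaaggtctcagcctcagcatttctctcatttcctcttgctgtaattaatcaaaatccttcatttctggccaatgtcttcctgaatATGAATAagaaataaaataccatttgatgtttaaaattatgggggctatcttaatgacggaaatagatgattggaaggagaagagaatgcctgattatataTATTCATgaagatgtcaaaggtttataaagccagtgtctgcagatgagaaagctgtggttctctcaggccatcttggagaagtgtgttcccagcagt
TATNCAT occurs on the minus strand 148 bases before the start and on the plus strand 47 bases before it. The promoter window of Pou1f1 at its first start also holds 2 matches, both on the minus strand, 57 bases before and 12 bases after the start. A match describes these letters and no binding.

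Prl separated the libraries by Xist. It was at 12.94 to 17.54 in the 6 libraries with high Xist and at 11.40 to 12.55 in the 4 with low Xist, without overlap. Of all tested genes, 0.631% were likewise higher in every library with high Xist than in every library with low Xist. In a fit with genotype and Xist rescaled from 0 to 1, Prl had a slope of 3.16 (SE 0.78, unadjusted p = 0.00135, limma's test), but its adjusted p was 0.411, and 0.0695% of all tested genes were called. The other 9 genes overlapped between high and low Xist, and the slope of Gh was 0.74 (SE 0.35, adjusted p = 0.757). With Xist in the model the log2 difference of Prl between p27-/- and WT was -0.094, where it was 0.40 without it.

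Pou1f1, which encodes the factor common to somatotrophs, lactotrophs and thyrotrophs, followed Prl at its upper end. It was at 5.59, 8.41, 6.16 and 5.34 in WT, at 7.56, 5.95 and 6.30 in p27-/- and at 6.41, 5.69 and 6.16 in p27-/-;Sox2+/- libraries. The log2 differences from WT were 0.23 (95% interval -0.999 to 1.455) and -0.29 (95% interval -1.51 to 0.94), and genotypes overlapped throughout. Over the 10 libraries Pou1f1 and Prl had r = 0.89 (permutation p = 0.0027, adjusted p = 0.016, rho = 0.65, permutation p = 0.0481, adjusted p = 0.0962). Without WT replicate 2 and p27-/- replicate 1 r was 0.46, so that the relation rests on these libraries. Within genotypes r was 0.89 with them.

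Gh (ENSMUSG00000020713), which encodes growth hormone, lies on chromosome 11 of GRCm38 from 106300261 to 106303703. Its mean was lowest in p27-/-;Sox2+/- IL, and its test missed the threshold. It was at 12.32, 14.35, 13.14 and 12.27 in WT, at 12.91, 11.40 and 12.59 in p27-/- and at 11.37, 11.05 and 11.62 in p27-/-;Sox2+/- libraries. All p27-/-;Sox2+/- values lay below all WT values, as did those of 8.01% of all tested genes, whereas the p27-/- values overlapped both. The log2 difference from WT was -1.67 in p27-/-;Sox2+/- (SE 0.43, adjusted p = 0.0533) and -0.72 in p27-/- (SE 0.43, adjusted p = 0.327), and the mutants differed by -0.95 (95% interval -1.94 to 0.028, adjusted p = 0.778). Without WT replicate 2 and p27-/- replicate 1 the difference in p27-/-;Sox2+/- was -1.23 and passed (adjusted p = 0.041). Over the single libraries left out its adjusted p ranged from 0.0287 to 0.214.

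Relative to Pou1f1, Gh had the same order of mean values over the genotypes. No difference could pass the exact permutation test, whose smallest p is 0.0571 for 3 against 4 libraries and 0.1 for 3 against 3. The log2 ratio of Gh to Pou1f1 was 6.73, 5.94, 6.98 and 6.93 in WT, 5.36, 5.46 and 6.29 in p27-/- and 4.96, 5.36 and 5.46 in p27-/-;Sox2+/-. WT and p27-/-;Sox2+/- did not overlap (difference -1.39, two-sided exact permutation p = 0.0571, adjusted p = 0.343), and WT and p27-/- did (difference -0.95, exact permutation p = 0.114). Over all libraries Gh and Pou1f1 had r = 0.71 (permutation p = 0.0415, adjusted p = 0.0623, rho = 0.49, permutation p = 0.155, adjusted p = 0.233), and without WT replicate 2 and p27-/- replicate 1 r was 0.024. Within genotypes r was 0.92 with these libraries kept. The log2 ratio of Gh to Prl ranged from -3.42 to 0.87 over all libraries and did not separate the genotypes (exact permutation p from 0.343 to 0.9).

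**Figure D5:**
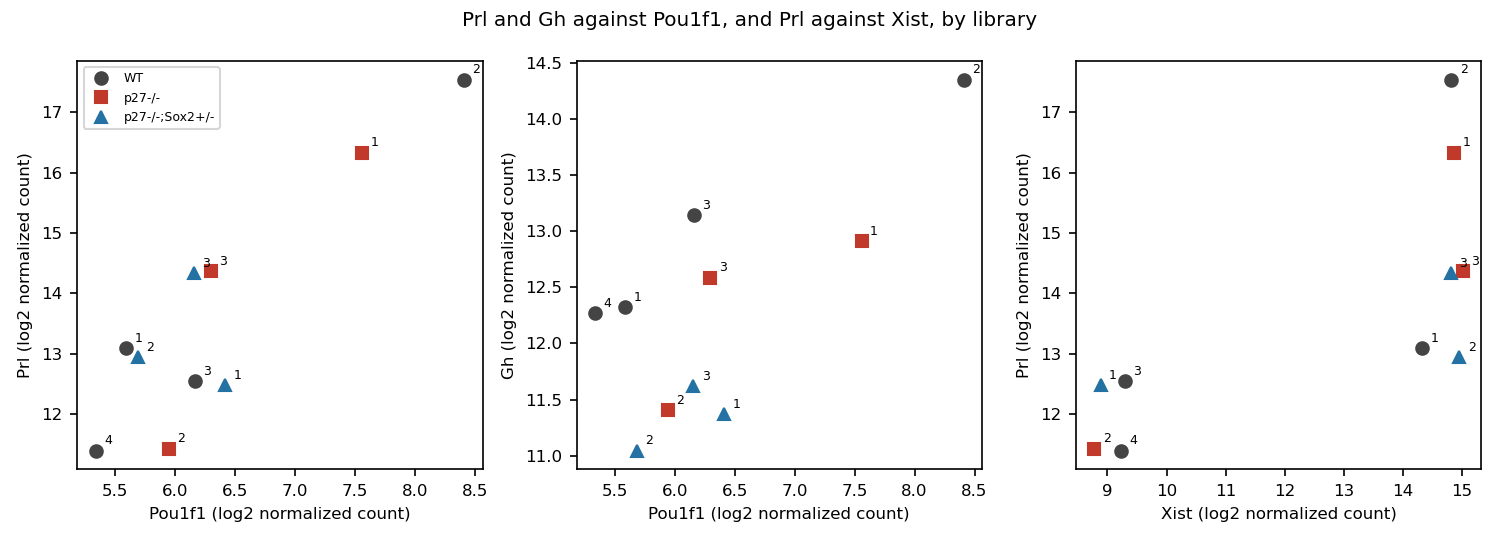
Prl against Pou1f1, Gh against Pou1f1 and Prl against Xist (log2 normalized counts on both axes), 1 point per library, with colour and shape for the genotype and the replicate number beside each point. WT replicate 2 and p27-/- replicate 1 are the highest in Prl and Pou1f1, and the 6 libraries with Xist above 14 all have more Prl than the other 4.

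Tshb and Ghrhr were low in all libraries and did not pass in any comparison. Tshb, the beta subunit of thyrotropin, was at 5.65, 5.55, 5.21 and 5.64 in WT, at 5.18, 4.89 and 5.38 in p27-/- and at 5.36, 4.85 and 5.71 in p27-/-;Sox2+/- libraries, with log2 differences from WT of -0.36 (SE 0.19, adjusted p = 0.253) and -0.20 (SE 0.19, adjusted p = 0.609). Ghrhr, the receptor by which somatotrophs respond to growth hormone-releasing hormone, was at 3.75, 4.52, 3.76 and 3.98 in WT, at 3.83, 3.81 and 3.87 in p27-/- and at 3.81, 3.83 and 3.79 in p27-/-;Sox2+/- libraries. WT replicate 2 stood out, and the log2 differences were -0.17 (SE 0.15, adjusted p = 0.514) and -0.19 (SE 0.15, adjusted p = 0.532). The SD within p27-/- and p27-/-;Sox2+/- was 0.032 and 0.019 for Ghrhr, and 0.25 and 0.43 for Tshb, which did not have this narrow spread. If low values were pulled together by the transformation, which was not tested, differences between genotypes are understated for such genes.

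From a list of 13 other genes of these lineages, among them Zbtb20, a factor needed for lactotrophs, 7 passed the filter. None was called in any of the 3 comparisons with limma's test, with 2, 2 and none at an unadjusted p under 0.05. Of all tested genes, 24.1%, 17.8% and 6.65% were at such a p. The median log2 difference of the 7 genes was -0.055 in p27-/- and -0.24 in p27-/-;Sox2+/-, where all tested genes had 0.0087 and 0.0098. The list is not particular to the AL, as Drd2, a dopamine receptor gene, is also on the melanotroph list. Zbtb20 was high in all libraries, at 13.97 to 14.40. The lack of calls therefore does not speak for AL cells alone.

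The genes whose levels were most like the mean centred level of Gh, Prl, Tshb, Pou1f1 and Ghrhr over the 10 libraries were Akr1c14 (r = 0.97), Asb4 (r = 0.97), Gm14617 (r = 0.96), Hepacam2 (r = 0.95) and Reln (r = 0.95). Akr1c14, a hydroxysteroid dehydrogenase, was at 7.06 in WT replicate 2 and 6.13 in p27-/- replicate 1 and between 4.00 and 4.67 in the other 8 libraries. Asb4 had the same 2 libraries at its top, at 8.12 and 7.69, with the others between 5.65 and 6.41. Those most like the mean centred level of Fshb, Lhb, Nr5a1 and Gnrhr were Adcy2 (r = 0.96), an adenylyl cyclase, Meis2 (r = 0.96), a homeodomain factor, Kcnn2 (r = 0.95), a potassium channel, Igdcc4 (r = 0.94) and Fgd6 (r = 0.94). Meis2 was at 6.93, 7.47, 7.24 and 7.56 in WT, 6.51 to 6.89 in p27-/- and 6.37 to 6.95 in p27-/-;Sox2+/- libraries. The coefficients were the highest among the 15131 tested genes with a symbol, the 10 members left out. All use the same 10 libraries, so they are given as a description.

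Most of these genes varied more within genotypes than nearly all other genes. Of the 10, 7 had a residual SD above that of 98.9% or more of the tested genes, these being Prl, Pou1f1, Fshb, Cga, Gh, Gnrhr and Lhb, and the others were above 97.1% (Nr5a1), 94.7% (Tshb) and 86.5% (Ghrhr). The mean centred log2 value over the 10 genes was 1.48 in WT replicate 2 and -0.25 to 0.14 in the other WT, -0.76 to 0.43 in the p27-/- and -0.67 to 0.09 in the p27-/-;Sox2+/- libraries.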

How the data were processed

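Total RNA of dissected pituitary IL was amplified with the Ovation system and sequenced, with 1 library per mouse. Per the study's methods, the authors aligned reads with STAR 2.5.2a to the Ensembl transcriptome of GRCm38 and counted them without regard to strand with RSEM 1.3.30. The authors normalized the counts with DESeq2 1.18.1 and deposited log2 values for 29527 genes. The transformation that gave these log2 values is not given in the sources used here. The lowest value is -1.89, column means lie between 4.345 and 4.367 and low genes such as Ghrhr vary little between libraries. The values are not counts, and depth is unknown. Symbols were matched by Ensembl identifier for 22709 rows, and for 356 more, Lhb among them, by the study's own gene lists.

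Differences between genotypes were estimated in limma (version 3.58.1, R version 4.3.3) with lmFit, contrasts and eBayes with trend, in 1 fit of all libraries, over the 17268 genes with a mean of at least 10 (3.32 on the log2 scale), with Benjamini-Hochberg adjustment over them and a threshold of 0.05. A second fit added Xist. 4 log2 ratios were compared with exact permutation tests, and 6 relations with permutation tests, using Python 3.11.15 (scipy 1.17.1, pandas 2.3.3, numpy 2.4.6). Figures were drawn with matplotlib 3.10.9. The fit was tested on simulated data. Lengths are from GENCODE M1 and promoter windows from RefSeq on GRCm38, which had none for Gh, Ghrhr and Nr5a1. The members, lists and tests were chosen with earlier results of these data known. Genes named are the 10 members, Cdkn1b, Sox2, Xist and Ddx3y, up to 6 called genes per list, a few lobe markers, and the 5 genes most like each lineage. A result of the gonadotroph list in p27-/- against WT is not reported here. Same-numbered replicates did not deviate together, as described with the alternatives below. Alternatives were array weights, no trend, quantile normalization, median centring, no filter, a mean of at least 50, only the groups compared, Xist as a covariate, Ddx3y in its place, a replicate block and each library left out. P-values are judged against the spread between these mice, and those of limma use a spread drawn toward that of other genes. For genes that vary as much as Fshb, Lhb or Prl, limma's SE is smaller than their own spread alone would give.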

Additional observations from a re-analysis of the deposited data

Results flagged for a closer look

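Among the 69 genes examined in the 4 WT libraries, 6 had 1 library set apart from the other 3 by Dixon's test, where chance gives about 1 in 20, or 3.45. Fshb was at 7.15 in WT replicate 1 and at 9.24 to 9.64 in the others. Thrb, a thyroid hormone receptor, was at 8.69 in WT replicate 2 and at 7.19 to 7.43 in the others. Inhba, an activin subunit, was at 7.37 in WT replicate 4 and at 6.501 to 6.515 in the others. Lhx3, Sox2 and Foxo1 were set apart in WT replicate 3, Lhx3 at 8.71 against 8.47 to 8.49, Sox2 at 7.75 against 7.34 to 7.39, and Foxo1 at 10.84 against 10.97 to 10.99. Groups of 3 mutant libraries were not tested in this way.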

How the results depend on the processing

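Of the 10 genes, 2 passed in p27-/- against WT, 1 with no filter and with the replicate block, and 1 to 3 with a library left out. In p27-/-;Sox2+/- against WT 1 passed, 0 with no filter, with only the 2 groups compared and with the replicate block, 2 with a mean of at least 50 and with Xist as a covariate, 3 with array weights, and 0 to 2 with a library left out. Leaving out WT replicate 3 or 4 or p27-/- replicate 2 or 3 left 1 call in p27-/-. Leaving out WT replicate 3 or 4 or p27-/-;Sox2+/- replicate 1 or 2 left none in p27-/-;Sox2+/-, and leaving out WT replicate 1 or p27-/- replicate 2 gave 2. With WT replicate 2 and p27-/- replicate 1 both left out, chosen after seeing the data, p27-/- against WT had 2 calls, Lhb and Cga, with Fshb lost (adjusted p = 0.0793), and p27-/-;Sox2+/- against WT had 1, Gh (adjusted p = 0.041), with Fshb lost (adjusted p = 0.0646). The mutants against each other and the Xist slope gave 0 calls in every setting. With array weights Cga passed in p27-/- (adjusted p = 0.0404), and Gh (adjusted p = 0.014) and Lhb (adjusted p = 0.0108) in p27-/-;Sox2+/-. Over all genes, p27-/- against WT had 1343 calls, 403 to 1709 with a library left out (403 without p27-/- replicate 3), 595 with the replicate block and 807 with only the 2 groups compared. p27-/-;Sox2+/- against WT had 468 calls, 80 to 658 with a library left out (80 without p27-/-;Sox2+/- replicate 2), 209 with the block and 1240 with array weights. The mutants against each other had 25 calls, 0 to 41 with a library left out, 2 with the block and 283 with array weights. The cause was not tested. The same-numbered replicates share only a number, as the correlations of their deviations lay between -0.24 and 0.18, and the replicate block drops WT replicate 4, which has no partner.

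The sign of some differences that did not pass turned. In p27-/- against WT, Prl was at -0.028 with array weights, -0.35 with the replicate block and -0.094 with Xist as a covariate, Nr5a1 at -0.014 with array weights, Pou1f1 at -0.12 with the block, and Ghrhr at 0.0041 with the 2 libraries left out. In p27-/-;Sox2+/- against WT, Gnrhr was at 0.035 with the block, and with the 2 libraries left out Prl was at 0.91, Pou1f1 at 0.39 and Gnrhr at 0.34. Between the mutants, Tshb was at -0.071 with array weights and Prl at 0.35 with the 2 libraries left out. The Xist slope of Nr5a1 was 0.00013 with quantile normalization and 0.032 with the block. With a single library left out, the log2 differences in p27-/- against WT ran from -0.75 to 1.71 for Prl, from -0.25 to 0.91 for Pou1f1, from -0.0044 to 0.32 for Nr5a1 and from -0.25 to 0.00077 for Ghrhr. In p27-/-;Sox2+/- against WT they ran from -1.14 to 0.91 for Prl, from -0.41 to 0.024 for Tshb, from -0.63 to 0.39 for Pou1f1 and from -0.24 to 0.34 for Gnrhr. Between the mutants they ran from -2.10 to 0.35 for Prl, from -0.042 to 0.39 for Tshb, from -0.65 to 0.14 for Fshb and from -0.19 to 0.84 for Cga, and for the log2 ratios from -1.001 to 0.70 for Gh to Prl and from -0.86 to 0.0195 for Fshb to Cga. The Xist slopes ran from -0.24 to 0.22 for Nr5a1, from -0.021 to 0.23 for Ghrhr and from -0.079 to 0.53 for Gnrhr. Ddx3y in place of Xist gave slopes of the same sign for all 10 genes.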
